A study of Zea mays with 4 samples.

Results

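The alpha and beta tubulin genes of maize kernels are described here across 2 arrays of a bt2 mutant and 2 arrays of the wild type. Members were all probe sets of genes whose array symbol, or whose RefSeq symbol or synonym, names an alpha or beta tubulin (tua or tub followed by a number, or the word tubulin). This found 10 genes of the 1108 genes that the array annotation names, 4 alpha and 6 beta, with 16 probe sets. A limit of 10 genes by mean level removed none, so the members were in effect chosen by name and not by a measured value, although the family was picked with earlier results of these data known.

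The mutant group carried the bt2-H2328 allele of Bt2 (brittle2), the gene for a small subunit of ADP-glucose pyrophosphorylase, which makes the building block of starch. The wild type group had no allele named, and the genetic background of neither group is given in the sources used here. All kernels were sampled 35 days after pollination from untreated greenhouse plants, and each sample was hybridised to 1 Affymetrix maize array. The labels give 20 µg of RNA for every sample except mutant 2, with 17 µg, and do not say how many kernels or plants a sample holds. The study asked whether blocked starch synthesis is followed by changes in transcripts of other pathways. Values are expression levels on the log2 scale made with GCRMA, which adjusts each probe for background predicted from its bases and then combines probes into 1 value for the probe set. In whole kernels, fewer cells of a type and less RNA per cell cannot be told apart.

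Microtubules are hollow filaments built from dimers of 1 alpha and 1 beta tubulin chain, and plant genomes hold several genes for each chain. In dividing plant cells they form the spindle and the phragmoplast, which lays down the new cell wall. In growing cells they line the plasma membrane and guide the enzyme complexes that spin cellulose. Maize endosperm cells divide and expand early in kernel development and later fill with starch and storage protein.

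bt2 itself, the mutated gene, had levels of 10.13 and 10.12 in the mutants, against 12.67 and 12.64 in the wild types. Many other probe sets were lower in the mutants too, so this alone does not establish the labels. Probe sets were tested where at least 2 arrays reached a log2 level of 4, the filter value named below. Across the 10458 that passed, the 2 mutant arrays correlated at 0.980, the 2 wild type arrays at 0.986 and arrays of different groups at 0.864 to 0.910.

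Tubulin transcripts were lower in the mutant. Of the 10 genes, each counted by its probe set with the highest mean, 8 fell, none rose and 2 did not pass, by limma at an adjusted p of 0.05 over all 10458 probe sets tested (n = 2 arrays per group). All 10 log2 differences were negative, with a median of -0.91, a lowest of -1.87 and a highest of -0.24. Over the 781 genes tested by 1 probe set, the median difference was -0.18 and 29.4% were called lower, 20.9% higher. At an unadjusted limma p under 0.05, 9 of the 10 tubulin genes were lower and again none was higher, against 5599 of all 10458 probe sets in either direction. Most of these calls need all 4 arrays, as did most calls over all probe sets. Leaving out 1 array leaves a group with a single array, so only differences are given here. They stayed negative for every tubulin gene whichever array was left out, except for tub3, which ran from -0.61 to 0.13.

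**Figure D1:**
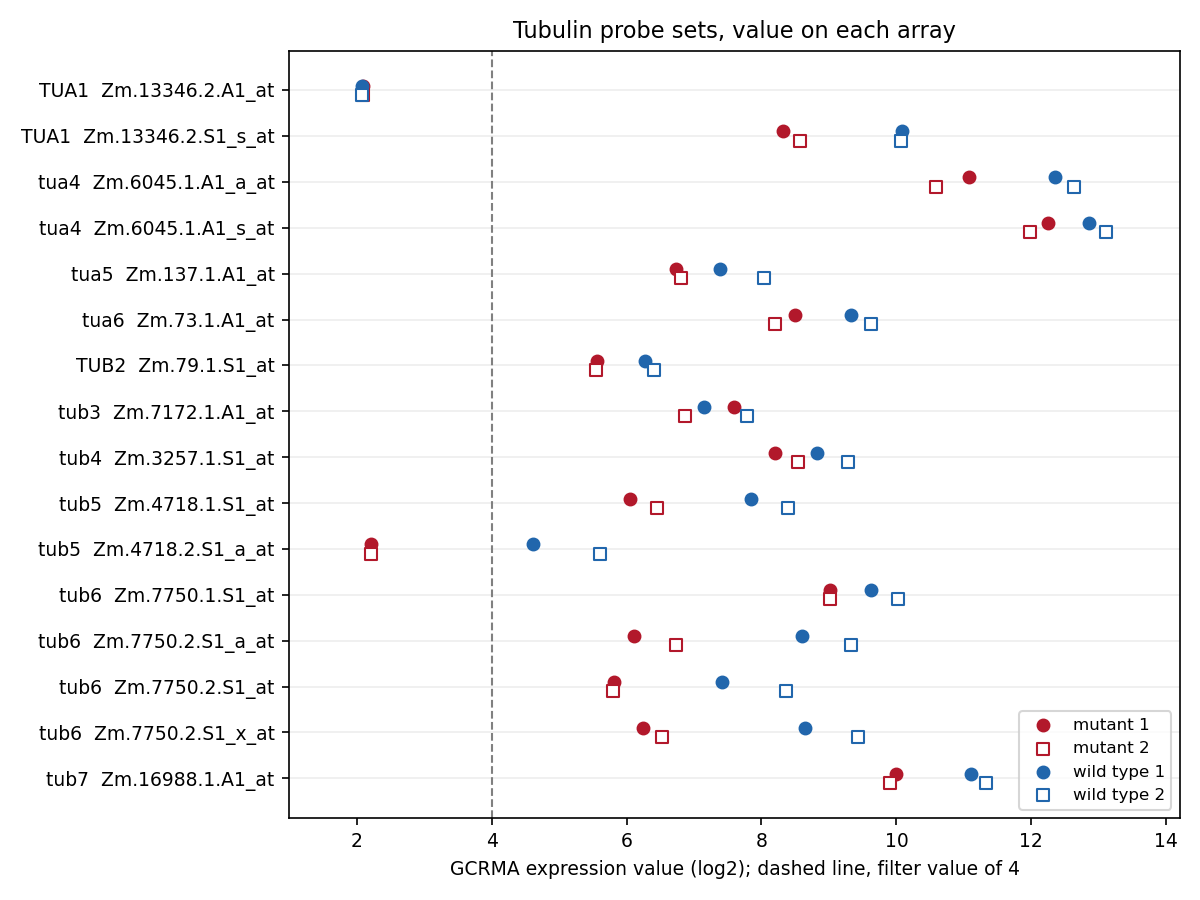
Expression level (log2, horizontal axis) of the 16 tubulin probe sets on each of the 4 arrays; red marks are mutants, blue marks wild types, and the dashed line is the filter value of 4. Red lies left of blue in every kept probe set but that of tub3, where a mutant lies between the wild types, and the probe set Zm.13346.2.A1_at of TUA1 reads near 2.09 on every array.

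All 4 alpha tubulin genes fell. TUA1 (LOC100037751) had the lowest difference of the 4 probe sets that stand for an alpha gene. That probe set, Zm.13346.2.S1_s_at, had log2 levels of 8.32 and 8.57 in the mutants, against 10.08 and 10.07 in the wild types. The wild types were nearly equal and both lay far above the mutants. The log2 difference was -1.63 (SE 0.14, n = 2 per group; limma adjusted p 0.00724), which is 3.10-fold lower. The suffix s in that name marks probes shared by several transcripts, so this signal cannot be assigned to TUA1 alone. The remaining TUA1 probe set, Zm.13346.2.A1_at, read 2.08 to 2.09 on all arrays, under the filter value of 4, and was the only 1 of the 16 that was not tested.

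tua4 (named by the array annotation, without a match in the RefSeq table) was measured by a pair of probe sets. Zm.6045.1.A1_s_at, whose probes again match several transcripts, had log2 levels of 12.25 and 11.98 in the mutants, against 12.86 and 13.10 in the wild types. The groups did not overlap, and the log2 difference was -0.87 (SE 0.15; limma adjusted p 0.0152). Zm.6045.1.A1_a_at, of the same sequence cluster, had levels of 11.07 and 10.59 against 12.35 and 12.63. Its difference was -1.66 (SE 0.21; limma adjusted p 0.00935), which is 3.16-fold lower. Both thus fell, and their differences lie 0.80 apart on the log2 scale.

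tua6 (LOC542582) had log2 levels of 8.49 and 8.20 in the mutants, against 9.33 and 9.63 in the wild types. The log2 difference was -1.14 (SE 0.18; limma adjusted p 0.0131). Replicates lay about 0.3 apart in each group and the groups did not overlap. tua5 (LOC542248) had levels of 6.73 and 6.80 against 7.39 and 8.04, a difference of -0.95 (SE 0.26). The wild types lay 0.65 apart, the widest gap among the alpha genes, and the limma adjusted p of 0.0433 was the closest to the threshold of the 8 genes that fell. It was 0.0855 when no probe set was filtered out.

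Of the 6 beta tubulin genes, 4 fell and 2 did not pass. tub5 (LOC542418, which also carries the synonym tub8) gave the lowest difference of all 10 genes. Its probe set Zm.4718.1.S1_at had log2 levels of 6.05 and 6.45 in the mutants, against 7.85 and 8.39 in the wild types. Every wild type lay more than 1 unit above every mutant, and the log2 difference was -1.87 (SE 0.26; limma adjusted p 0.0110), which is 3.66-fold lower. Its other probe set, Zm.4718.2.S1_a_at, read 2.21 in both mutants, under the filter value, and 4.62 and 5.6 in the wild types. This is at least 2.16-fold lower when the mutants are set to the filter value of 4 (limma adjusted p 0.00989).

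tub7 (LOC542705) had log2 levels of 10 and 9.91 in the mutants, against 11.10 and 11.33 in the wild types. Replicates of each group lay close together beside a log2 difference of -1.26 (SE 0.13; limma adjusted p 0.00783), which is 2.39-fold lower. TUB2 (array symbol TUBB2) had levels of 5.56 and 5.55 against 6.27 and 6.40, a difference of -0.78 (SE 0.16; limma adjusted p 0.0220). Its groups did not overlap either.

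tub6 (LOC542239) was read by 4 probe sets, which all fell but by different amounts. The brightest, Zm.7750.1.S1_at, had log2 levels of 9.01 and 9.02 in the mutants, against 9.62 and 10.02 in the wild types. The log2 difference was -0.81 (SE 0.17; limma adjusted p 0.0242). It passed no longer without a filter, at 0.0523. The other 3 come from another sequence cluster that the annotation assigns to the same gene. Zm.7750.2.S1_x_at had levels of 6.25 and 6.52 against 8.64 and 9.43, Zm.7750.2.S1_a_at 6.11 and 6.73 against 8.60 and 9.33, and Zm.7750.2.S1_at 5.82 and 5.80 against 7.42 and 8.37. Their log2 differences were -2.65 (SE 0.31), -2.55 (SE 0.35) and -2.09 (SE 0.35), with limma adjusted p values of 0.00860, 0.0103 and 0.0147. The probe sets of tub6 therefore span 1.85 on the log2 scale, against 1.03 between the pair of tub5 before the bound. The tub5 pair also comes from separate sequence clusters. The 3 probe sets of the Zm.7750.2 cluster share sequence and are not separate measurements. Whether both clusters read 1 gene cannot be settled here, for tub6 or for tub5.

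tub4 and tub3 did not pass. tub4 (LOC542417) had log2 levels of 8.20 and 8.54 in the mutants, against 8.82 and 9.28 in the wild types. Both wild types lay above both mutants, but the replicates of each group lay 0.34 and 0.46 apart beside a log2 difference of -0.68 (95% interval -1.28 to -0.08, limma adjusted p 0.0687). It passed after renewed quantile normalization, at 0.0474. tub3 (LOC542416) had levels of 7.59 and 6.86 in the mutants, against 7.15 and 7.78 in the wild types. It was the only tubulin gene whose groups overlapped, and its difference of -0.24 had a 95% interval from -1.18 to 0.70 (limma adjusted p 0.606). That interval also holds the differences of tua4, tua5, tua6, TUB2, tub4 and tub6.

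**Figure D2:**
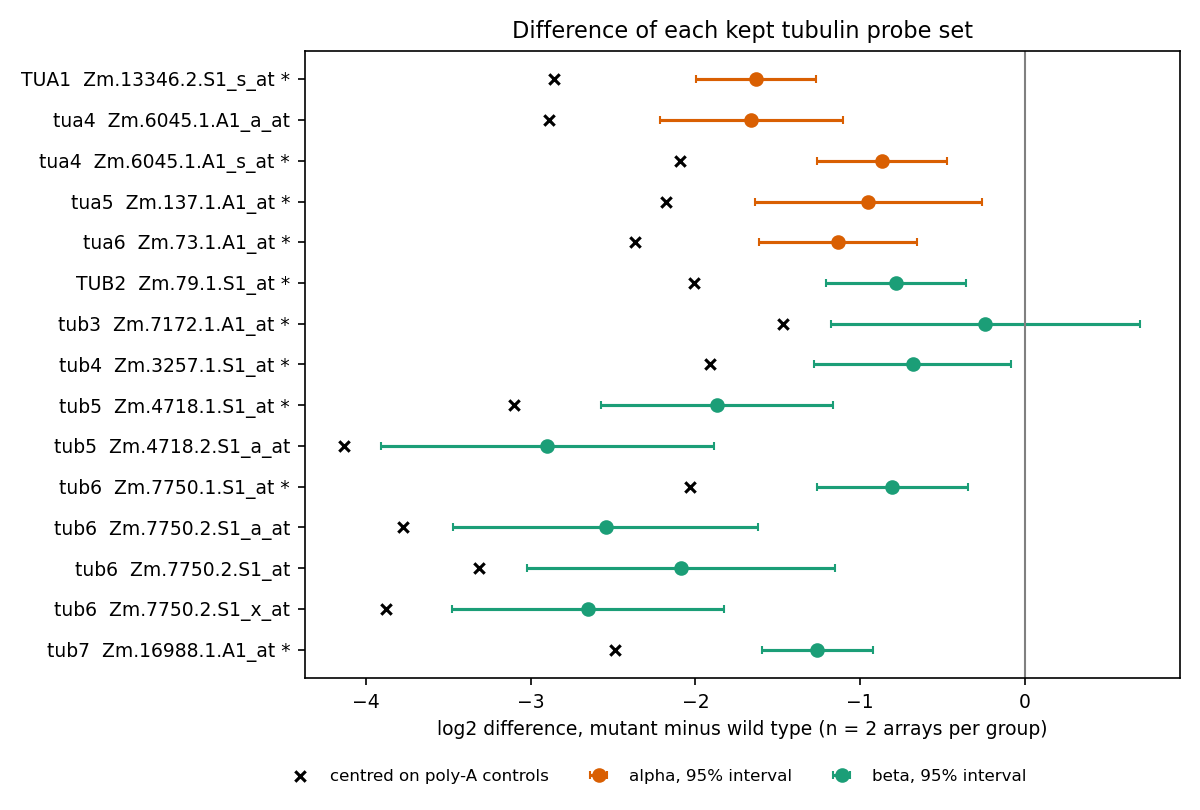
Log2 difference, mutant minus wild type (horizontal axis), of the 15 kept tubulin probe sets, alpha in orange and beta in green, with 95% intervals from limma; a star marks the probe set that stands for its gene, and crosses show the same differences when arrays are centred on the poly-A controls. All 15 points lie below 0, from -2.90 for Zm.4718.2.S1_a_at to -0.24 for tub3, and all crosses lie at -1.47 or lower.

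Counting probe sets instead of genes, 13 of the 15 that passed the filter fell, 5 of 5 alpha and 8 of 10 beta, and none rose. Among the 8, Zm.4718.2.S1_a_at of tub5 passed the filter only through the wild types, which favours a fall. When all 4 arrays had to reach the filter value, 12 of 14 fell and none rose. Over all 10458 probe sets tested, 22.1% were called lower and 21.0% higher. The median log2 difference was -1.26 for the 15 tubulin probe sets and -0.02 for all. At the level of genes, the mutants lay below both wild types without overlap in 9 of 10 tubulin genes, against 47.5% of the 781 genes. Means were at least 2-fold lower in the mutant in TUA1, tua6, tub5 and tub7, 4 of 10 genes, against 19.1% of the 781.

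The scale of the arrays bears on the size of these differences, while their direction was the same under each of the centrings below. Control RNAs with a poly-A tail, which are spiked in ahead of labelling, read higher in the mutants, with array medians of 7.18 and 7.46 against 6.02 and 6.15. Centring on them moves every log2 difference by -1.23. On that scale all 10 tubulin genes were called lower by limma, with tub3 at -1.47 and tub4 at -1.91, but so were most probe sets, 8232 of 10458. Arrays were also centred on their medians over all maize probe sets, those that failed the filter included. This left 8 of 10 tubulin genes called lower. It moved the split over all tested probe sets from 2315 lower and 2199 higher to 1868 lower and 2869 higher. For 7 pairs of array control probe sets at the 5′ and 3′ ends of maize transcripts, the 5′ level relative to the 3′ level was lower in the mutants in 5, with a median log2 difference of -0.26 and a range of -1.55 to 0.02. The part of RNA length in the tubulin differences was not tested.

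Which tubulin family had the lower differences depended on how probe sets were counted. With 1 probe set for each gene, the median log2 difference was -1.04 over the 4 alpha genes and -0.79 over the 6 beta genes, a gap of -0.25. With every kept probe set counted, which was tried after seeing the data, it was -1.14 over the 5 alpha and -1.57 over the 10 beta probe sets, so the gap turned to 0.43. In the first count tub6 stands at -0.81, while the second also holds its 3 probe sets at -2.09 to -2.65. The second count also holds Zm.4718.2.S1_a_at of tub5 at -2.90, which passed the filter only through the wild types. With 1 probe set for each gene, centred on its own mean of the 4 arrays, the alpha genes averaged -0.54 and -0.60 in the mutants, against 0.43 and 0.72 in the wild types. The beta genes averaged -0.46 and -0.48 in the mutants, against 0.27 and 0.67 in the wild types. Alpha minus beta was then -0.08 and -0.13 in the mutants against 0.15 and 0.05 in the wild types, so the mutants lay lower on all arrays, by 0.21 on average. Genes are not replicates of a condition, and 2 against 2 arrays cannot give an exact two-sided p below 0.333, so the gap was given no test. Over genes it ran from -0.35 without mutant 1 to -0.16 without mutant 2, and was -0.18 when a gene was represented by the mean of its probe sets.

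**Figure D3:**
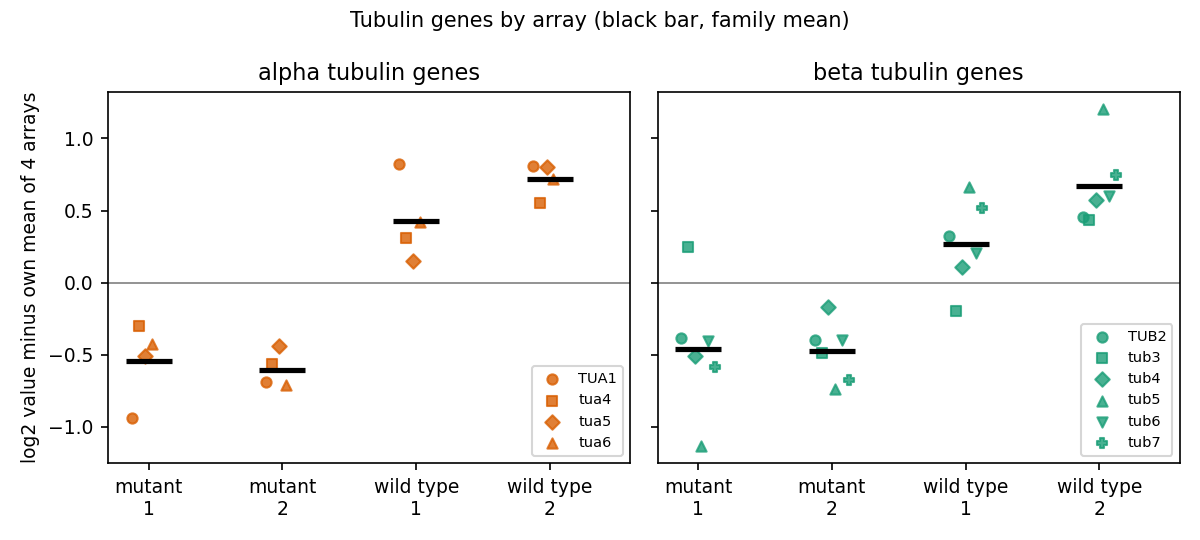
Log2 level of each tubulin gene minus its own mean of 4 arrays (vertical axis) by array, alpha genes left and beta genes right, with black bars for the mean of a family. Alpha means lie at -0.54 and -0.60 in the mutants and beta means at -0.46 and -0.48, and both families are highest on wild type 2, at 0.72 and 0.67.

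The wild types were not alike for these genes. Wild type 2 exceeded wild type 1 in 14 of the 15 kept tubulin probe sets, by a median of 0.46 in log2 and by up to 0.98, while mutant 2 exceeded mutant 1 in 7 of 15. The exception was TUA1, at -0.01. Over all kept probe sets the share with wild type 2 higher was 48.4%, but among the 2315 called lower in the mutant it was 79.0%, and 12 of the 13 tubulin probe sets called lower showed it. Wild type 1 thus lay nearer to the mutants than wild type 2 for tubulins, as it did for most probe sets that were lower in the mutant.

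**Figure D4:**
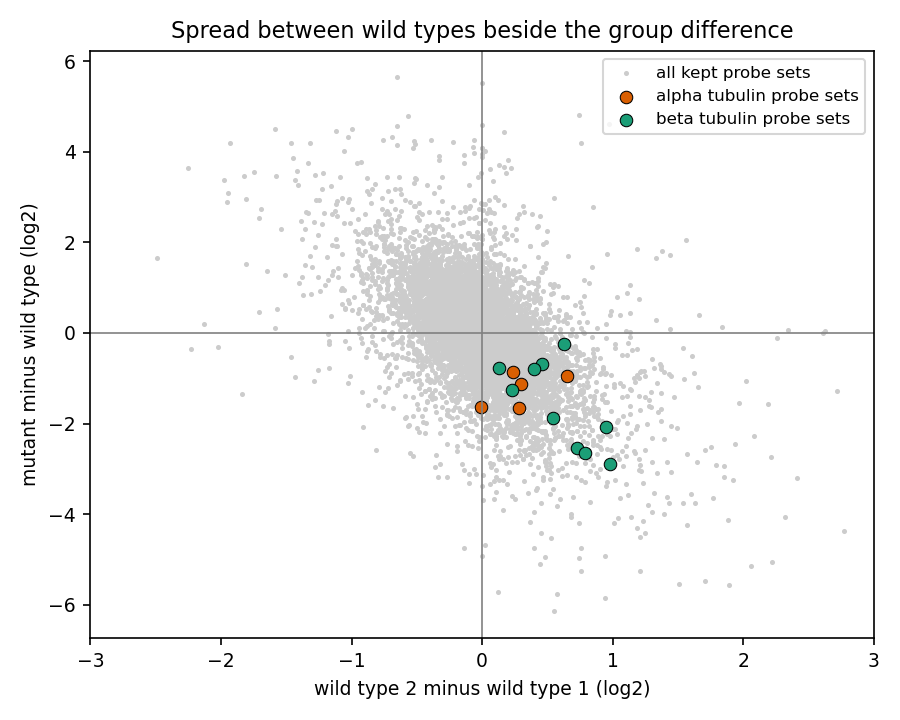
Difference between the wild types (wild type 2 minus wild type 1, log2, horizontal axis) and between groups (mutant minus wild type, log2, vertical axis) for all kept probe sets in grey and the 15 tubulin probe sets in colour; 4 grey points lie beyond the horizontal axis limit of 3. The tubulins lie below 0 on the vertical axis, and 14 of 15 lie right of 0 on the horizontal axis.

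Calls in marker lists of kernel tissues are given beside all genes tested, of which 29.4% were called lower and 20.9% higher. The basal transfer layer, starchy endosperm and pericarp lists held falls and no rises. The embryo list held no falls, with 1 rise left once a misplaced gene was removed, and the aleurone list held 1 call each way. All 4 kept markers of the basal transfer layer, the cells through which sugars enter the endosperm, fell, against 29.4% of all genes tested. The mean log2 level over its 6 measured markers was 3.03 and 3.04 in the mutants, against 5.27 and 6.0 in the wild types. However, BETL1, meg2 and betl3 read under the filter value in both mutants. They passed the filter only through the wild types, which favours a fall. INCW2 and betl2 of that list were under the filter value on every array. Wild type 2 exceeded wild type 1 in its kept markers BETL1, meg2, betl3 and betl4, by 1.63, 1.3, 0.94 and 0.24. Of 5 starchy endosperm markers 3 fell, but 1 of them is bt2, the mutated gene. Without it FL2 and sh2 of 4 fell, at -3.68 and -1.18, while zp27 at -0.33 and wx1 at 0.18 did not pass. The list means were 12.32 and 12.25 in the mutants, against 13.53 and 13.54 in the wild types. Of 5 embryo markers none fell and 2 rose, but 1 of those rises is a haemoglobin gene caught through the synonym GLB1. Without it only rab17 of 4 rose, near the 20.9% of all genes tested, with means of 14.72 and 14.66 against 14.47 and 14.34. When centred on the poly-A controls, rab17 was lower in the mutant by 0.82. Of 4 pericarp and maternal tissue markers, 3 were kept and 2 fell, with means of 5.27 and 5.68 against 6.08 and 6.29, and p1 was under the filter value throughout. Of 4 aleurone markers 3 were kept, 1 fell and 1 rose, with means of 7.5 and 7.44 against 7.37 and 7.22, and cr4 was under the filter value. The part of a changed tissue makeup in the tubulin differences was not tested.

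Other genes of the microtubule and actin systems were called in both directions, with 2 of 8 kept genes of both lists lower and 2 higher, near the 29.4% and 20.9% of all genes tested. In the list of microtubule binding proteins, motors and division plane genes, 9 genes were measured and 4 passed the filter. Of these, KIN6, a kinesin motor gene, fell by 0.61 on the log2 scale (limma adjusted p 0.0364) and 3 did not pass, namely KIN1 at 0.88, kin15 at -0.54 and KIN9 at 0.14. The list's median difference was -0.20, near the -0.18 of all genes tested. Levels of tan1, a microtubule-binding guide of the division plane, were under the filter value on all arrays. The tubulin folding list held 2 genes, PFD6 and pFD2, which carry ferredoxin synonyms and are not tubulin folding genes, so that step was not measured; PFD6 rose by 1.32. The 2 gamma tubulin genes, whose product starts new microtubules, have names outside the rule and were looked up after their values were seen. The brightest probe set of TUBG2 (LOC542424) had log2 levels of 3.78 and 3.77 in the mutants, against 4.21 and 5.12 in the wild types, and that of tubg1 (LOC542436) 5.63 and 6.18 against 6.18 and 6.32. Neither passed, with limma adjusted p values of 0.107 and 0.302, while another probe set of tubg1, Zm.5789.5.S1_a_at, fell by 1.16 (adjusted p 0.0343).

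Among 9 measured actin binding genes 4 passed the filter. brk1, a subunit of a complex that promotes branching of actin filaments, fell by 1.67 (limma adjusted p 0.0125). prf5, a profilin, rose by 0.38 and ADF3, an actin depolymerising factor, rose by 0.30, though both were lower in the mutant when centred on the poly-A controls, at -0.85 and -0.94. The remaining gene, profilin-2, read -0.38 and did not pass. No gene of the array annotation matched the actin list.

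In the cellulose synthesis, expansin and cell division lists every call was a fall. Of 12 kept cellulose synthesis genes 6 fell and none rose, led by CesA-9 at -2.15, CesA-2 at -1.72, CesA-1 at -1.55 and CesA-7 at -1.14, with a list median of -0.67. Of 7 kept expansin genes, whose proteins loosen cell walls, 5 fell and none rose, with expB8 at -2.30. The others that fell were expB6, EXPA5, expa1 and expB3, at least 13.1-fold, 2.90-fold, 17.0-fold and 4.13-fold lower. These read under the filter value in both mutants and passed the filter only through the wild types, which favours a fall. The wild types of expB3 lay far apart, at 4.94 and 7.15. By contrast expa2, which passed the filter only through the mutants, read 0.69 and was not called. Of 14 measured cell division genes 7 were under the filter value on every array. Of the 6 kept, 4 fell and none rose. These included cycD2, a D-type cyclin, at -1.26 and cdc2, a cyclin-dependent kinase, at -1.20. The others were pcna2, the sliding clamp of DNA replication, at -2.66, and orc3, of the replication origin complex, at -1.03. Replicates of pcna2 lay far apart, at 4.25 and 3.15 in the mutants, against 5.77 and 6.94 in the wild types. For comparison, 29.4% of all genes tested were called lower.

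**Figure D5:**
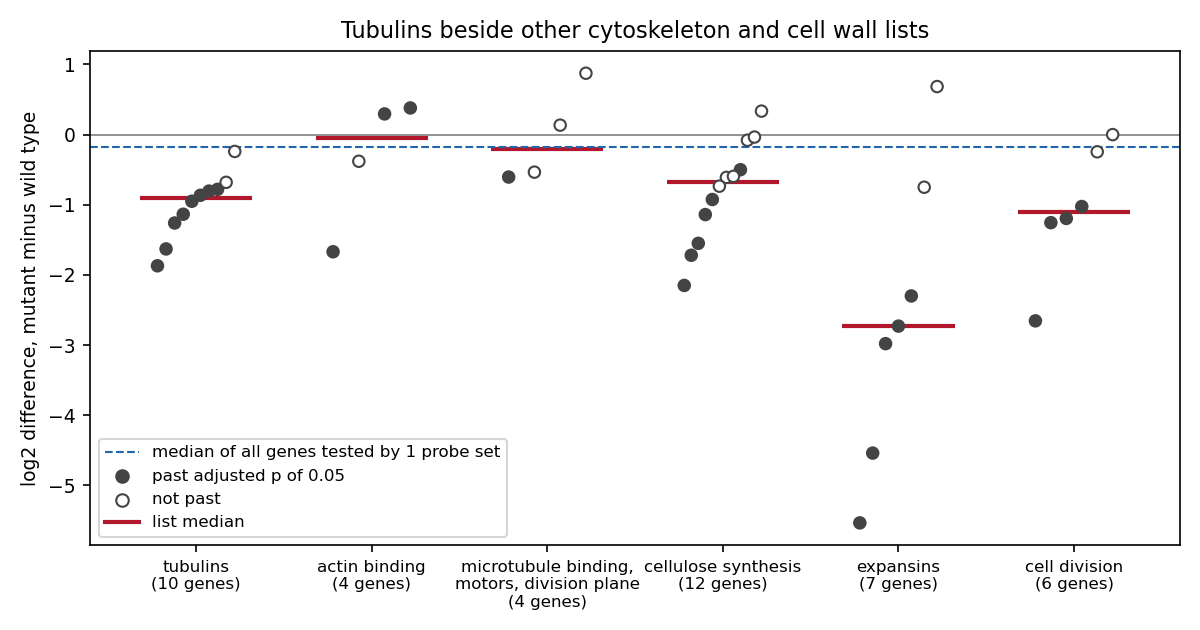
Log2 difference, mutant minus wild type (vertical axis), of the 10 tubulin genes and of the kept genes of 5 other lists; filled points passed limma at an adjusted p of 0.05, red bars are list medians and the dashed line is the median of all 781 genes, -0.18. The tubulin median is -0.91, between -0.67 for cellulose synthesis and -1.11 for cell division, while the microtubule binding list sits at -0.20.

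Profiles over the 4 arrays were compared after each gene was centred on its own mean, by root mean square distance, over 681 named genes. With 4 arrays in 2 groups, likeness here mostly means a like difference between groups. The alpha gene with the highest mean, tua4, was closest to LOC541763, a gene with the synonyms ATPase and myosin1, at a distance of 0.036 log2 units. MZPPT1, a phosphoenolpyruvate transporter gene of plastids, followed at 0.052 and NIP3-1, a water channel family gene, at 0.065. The beta gene with the highest mean, tub7, was closest to the endoplasmic reticulum chaperone gene bip2 at 0.038, then to igl1, an indole-glycerol phosphate lyase gene, at 0.065 and to CesA-7, a cellulose synthase gene, at 0.066. Levels of LOC541763 were 6.69 and 6.48 in the mutants, against 7.28 and 7.60 in the wild types, and those of bip2 were 9.05 and 8.90 against 10.11 and 10.42. Of the 9 tubulin genes placed on the maize reference Zm-B73-REFERENCE-NAM-5.0, none were neighbours, with at least 273 protein-coding genes between any that share a chromosome.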

How the data were processed

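The deposited values are log2 expression values per probe set, made by the authors with GCRMA per the submitters' processing notes. The log base was read from the values, which run from 1.31 to 15.44. The sources used here state neither its version nor whether all arrays were normalized in 1 run. The table lists 17734 probe sets, with 113 controls and 1 empty. The array annotation, which is old, supplied gene symbols, updated by Entrez identifier through a RefSeq table of Zm-B73-REFERENCE-NAM-5.0: 1452 probe sets had 1 gene, 1 had several and 16167 none, and 1060 of 1108 genes, 9 of the 10 tubulins among them, were in that table.

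A probe set was tested if 2 or more of the 4 arrays reached a log2 value of 4, true for 10458 and not for 7162. The groups were fitted in limma 3.58.1 under R 4.3.3 (lmFit, eBayes with trend, two-sided, Benjamini-Hochberg over all kept probe sets), and the fit was tested on simulated data. SE is the moderated standard error, and a gene was represented by its probe set with the highest mean. Where both arrays of a group lay under 4, the fold is a bound against that value. Named were all members, bt2, up to 4 genes per list by smallest p, and the 3 named genes nearest in profile to the brightest alpha and beta gene; gamma tubulins and further list members were named after their values were seen. The members and lists were chosen with earlier results of these data known, so lists are described by counts and medians only. Figures were drawn with matplotlib 3.10.9. The labels do not say that samples came from separate plants, so the spread behind each p-value may be technical, and 2 arrays per group limit the precision of every value.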

Additional observations from a re-analysis of the deposited data

Results flagged for a closer look

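The poly-A control probe sets entered no comparison of genes and carry a signal of their own. Their levels exceeded those of the wild types in 36 of 36 probe sets on the mutant side, with a median log2 difference of 1.20. The 27 probe sets of hybridisation controls, which are spiked in once labelling is done, had a median log2 difference of 0.14. The probe sets read a few control RNAs and are not independent. The part of this difference in the tubulin values was not tested beyond the centring given above.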

How the results depend on the processing

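Leaving out 1 array changed the limma counts most, partly because fewer arrays remain: 0 to 2 of 10 tubulin genes, 0 to 5 of 15 tubulin probe sets, 0 to 1195 of all probe sets and 0 to 10 of 34 list genes passed, where 8, 13, 4514 and 20 did with all arrays. The gap between alpha and beta medians ran from -0.35 to -0.16. The log2 difference of tub3 ran from -0.61 to 0.13, positive without mutant 2 (0.13) and without wild type 2 (0.08), and did not pass in any. At an adjusted p of 0.01, 2 tubulin genes and 1134 probe sets passed. Centring on poly-A controls gave 8536 calls over all probe sets and 31 over the list genes, and left 10 of 10 tubulin genes lower. The gap between families was -0.18 with the mean of a gene's probe sets and turned to 0.43 with every kept probe set counted. In every other planned setting 6 to 9 tubulin genes were lower and none higher, with 6 when no probe set was filtered out. There TUA1's probe set at the floor was called higher at a difference of 0.01, since values near the floor hardly vary. With the replicate block, 7 tubulin genes, 12 tubulin probe sets, 3444 of all probe sets and 14 list genes passed; tua5 (adjusted p 0.0586) and TUB2 (0.0507) were lost and tub4 (0.0410) was gained. The numbers do not show a pairing, as the deviations of same-numbered arrays correlated at 0.02. The rule matched exactly 10 genes, so dropping its limit gives the same values. The count of every probe set for the gap and the alternatives for the list genes were added after seeing the data.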
